A study of Mus musculus with 6 samples.

Results

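Mucin and glycan glycosyltransferases are the enzymes that build the sugar chains of mucins, of other glycoproteins and of glycolipids on the intestinal surface. They were taken as all protein-coding genes whose symbols belong to the Fut, St3gal, St6gal, St6galnac, B3galt, B4galt, C1galt, Galnt, B4galnt, B3gnt and Gcnt families. The rule found 64 of the 23390 genes in the table: 18 GalNAc-transferases, 13 galactosyltransferases, 13 GlcNAc-transferases, 13 sialyltransferases and 7 fucosyltransferases. The GlcNAc-transferases (B3gnt and Gcnt) fall outside the other 4 classes and are given as a class of their own. St6galnac2 stands in the table as 2 genes with the same symbol, ENSMUSG00000057286 and the shorter ENSMUSG00000110170 nested within it, so reads can be split between them.

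RNA was sequenced from epithelial cells of the small intestine of C57BL/6 mice, sorted as viable, EpCAM-positive and CD45-negative cells, a gate that keeps epithelium and removes leukocytes. There were 3 Vil.Cre Maf.flox libraries, from mice whose floxed Maf is deleted by Cre driven from the promoter of villin, an epithelial gene of the gut, and 3 Maf.flox control libraries. Both groups carry floxed Maf and no group carries Cre alone, so effects of Cre and of Maf loss cannot be told apart; age is not stated. The labels do not say whether each library came from a separate mouse, so the p-values rest on a spread among libraries that may in part be technical. The comparison asks what loss of epithelial c-Maf, a bZIP transcription factor, changes in the RNA of these cells.

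Library totals were between 17464355 and 24802525 counts, and 1 CPM, the unit of counts scaled to library size with TMM factors, stood for 17 to 23.8 counts. Maf had 16, 1 and 1 counts in Vil.Cre Maf.flox and 9398, 5615 and 3893 counts in Maf.flox. Epcam was at 1922 to 2225 CPM in Vil.Cre Maf.flox and at 1998 to 2305 CPM in Maf.flox. Ptprc, which encodes CD45, was at 0.101 to 0.587 CPM in Vil.Cre Maf.flox and at 0.285 to 2.29 CPM in Maf.flox. Counts of Xist and Y-linked genes placed 2 males and 1 female in Vil.Cre Maf.flox and 1 male and 2 females in Maf.flox. Maf.flox replicate 3 stood furthest from its group. Summed tuft cell markers were at 25.1 to 31.8 CPM in Vil.Cre Maf.flox and 33.8 to 143 CPM in Maf.flox, with 11 of 11 tested below 0 and 0 called. Of these, 10 had an unadjusted edgeR p under 0.05, where 9.25% of all genes tested were lower at that p. Paneth cell markers were at 8658 to 12690 CPM in Vil.Cre Maf.flox and 6420 to 40840 CPM in Maf.flox. Of 12 tested, 10 lay below 0 and 2 above, with a median log2 fold change of -1.125. None of the Paneth markers was called or had an unadjusted edgeR p under 0.05. Leukocyte markers summed to 32.7 to 43.0 CPM in Vil.Cre Maf.flox and 24.7 to 35.2 CPM in Maf.flox. Of 6 tested, 4 lay above 0 and 2, Ptprc and Lcp1, below. Their median log2 fold change was 0.97, and 0 were called. In sorted bulk cells, fewer cells of a type and less RNA per cell cannot be told apart.

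As background, mucin-type O-glycans start when a Galnt enzyme attaches GalNAc to serine or threonine. C1galt1 adds galactose to form the T antigen, Gcnt and B3gnt enzymes branch and extend the chain with GlcNAc, and B4galt and B3galt enzymes add further galactose. Sialyltransferases and fucosyltransferases cap the chains with sialic acid and fucose. In the small intestine these caps form part of the mucus and of the enterocyte glycocalyx, where fucose is a carbon source for gut bacteria.

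No glycosyltransferase was called. Of the 52 tested, 0 passed edgeR's quasi-likelihood test at an FDR of 0.05 over the 13740 genes tested, of which 0.546% passed, 0.189% higher and 0.357% lower in Vil.Cre Maf.flox. An unadjusted p under 0.05 was reached by 14 of the 52, or 26.9%, against 16.4% of all genes tested. Of these, 10 were higher in Vil.Cre Maf.flox, where the background was 7.11% of all genes, and 4 were lower, where it was 9.25%. The libraries of the genotypes did not overlap in 11 of the 52, or 21.2%, against 20.6% of all genes tested. Of these, 8 were higher in Vil.Cre Maf.flox (background 10.1%) and 3 lower (background 10.5%).

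The members' median log2 fold change was 0.09 and that of all genes tested was -0.01. It was above 0 in 33 members and below in 19, and above 0 in 48.4% of all genes tested. In 38 of the 52 members it was under 0.4 in size, a share that was not computed over all genes. The number of members called depended on the fit. DESeq2 called 7 of the 52, against 5.77% of all genes with an adjusted p, and gave Fut2 and B3galt5 no adjusted p. With edgeR, 5 of the 52 were called with a replicate block (background 3.2%) and 2 of the 52 with upper quartile factors (background 0.75%). Without the filter on low counts, 4 of all 64 members were called (background 1.58%). Without Maf.flox replicate 3, 5 members were called, against 701 of 14029 genes tested (5%). RLE factors, a least count of 50, limma-voom, a sex term and leaving out any other library each called 0. The members called in any of these fits were Gcnt1, Fut4, B3gnt6, St3gal1, B4galt6, B4galt5 and B3gnt7.

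The other 12 members were too low to test, with at most 16 counts in any library. They were Fut10, St3gal2, St3gal5, St6gal2, St6galnac3, B3galt1, B4galt2, Galnt9, Galnt14, Galnt18, B3gnt8 and Gcnt7.

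**Figure D1:**
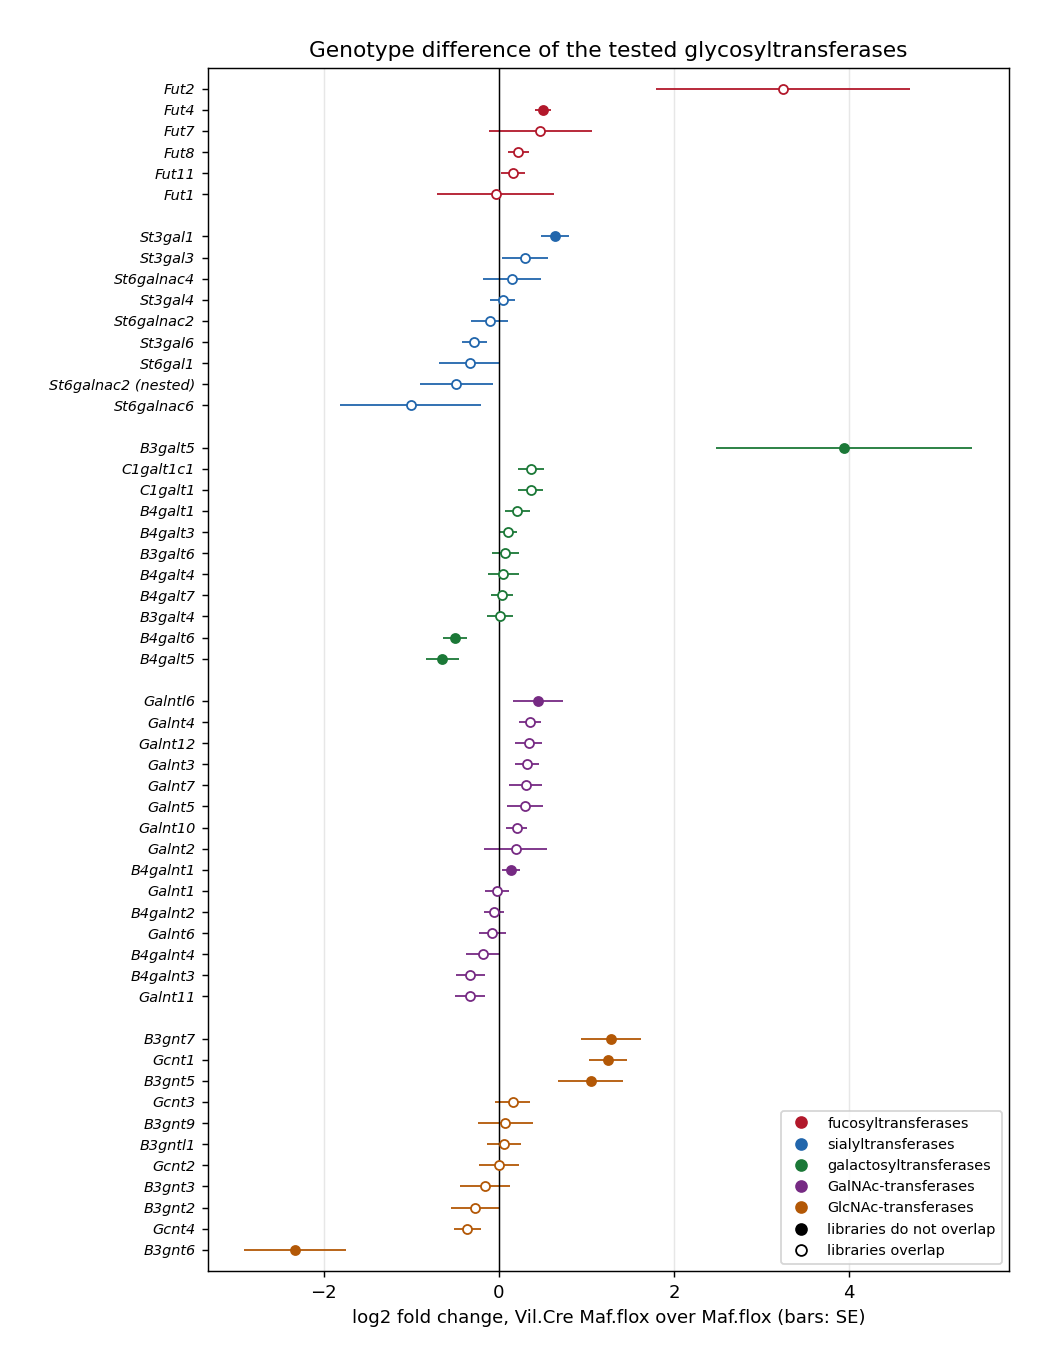
Log2 fold change (x axis, Vil.Cre Maf.flox over Maf.flox, bars SE) of the 52 tested glycosyltransferases, by class; filled points mark the 11 genes whose libraries do not overlap between genotypes. Most genes lie close to 0, while Fut2 and B3galt5 have the highest values and the widest errors, and B3gnt6 has the lowest value.

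Among the GalNAc-transferases, which start O-glycans or finish other chains, none was called and most values lay close to 0. B4galnt2, which makes the Sda blood group antigen in the gut, was the highest of the class by FPKM, the deposited level per transcript length, with 215 ± 20.99 FPKM in Vil.Cre Maf.flox and 222 ± 13 FPKM in Maf.flox (SD, n = 3 each). It was followed by B4galnt1, the GM2 ganglioside synthase, at 96.1 ± 5.76 FPKM in Vil.Cre Maf.flox and 86.5 ± 0.766 FPKM in Maf.flox. Galnt6, the highest of the O-glycan starting enzymes, had 70.8 ± 10.9 FPKM in Vil.Cre Maf.flox and 74.0 ± 11.5 FPKM in Maf.flox. The differences of B4galnt2 and Galnt6 between genotypes were smaller than the spread between libraries. The B4galnt1 libraries did not overlap, with 340, 347 and 307 CPM in Vil.Cre Maf.flox and 294, 303 and 303 CPM in Maf.flox, a log2 fold change of 0.14 (SE 0.102, adjusted p = 0.541).

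Behind these 3 genes, Galnt1, Galnt12, Galnt4, Galnt10 and Galnt7 lay close together, with group means between 27.9 and 37.8 FPKM, and the libraries of neighbours in that order overlapped. Galnt7 and Galnt10 act on peptides that already carry GalNAc. The smallest p of the class belonged to Galnt4, with 197, 203 and 157 CPM in Vil.Cre Maf.flox and 157, 145 and 134 CPM in Maf.flox. This was a log2 fold change of 0.35 (SE 0.126, adjusted p = 0.217). Vil.Cre Maf.flox replicate 3 and Maf.flox replicate 1 were level, and the other libraries were apart. Galnt4 shares exon sequence with Poc1b on its own strand, so reads can be assigned to either gene. For Galnt3 the log2 fold change was 0.32 (SE 0.135, adjusted p = 0.280), and for Galnt12 0.34 (SE 0.156, adjusted p = 0.329).

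Across the class, 9 of 15 tested GalNAc-transferases lay above 0 and 6 below, with values from -0.33 to 0.44 and a median of 0.19. In 14 of the 15 the log2 fold change was under 0.4 in size. The exception was Galntl6, a poorly described family member, with 2.74, 1.82 and 1.80 CPM in Vil.Cre Maf.flox and 1.39, 1.77 and 1.52 CPM in Maf.flox. These groups did not overlap, but the nearest libraries were almost level. The lowest values of the class were -0.33 for Galnt11 and -0.32 for B4galnt3 (SE 0.164). The summed level of all 18 genes was 593 ± 65.8 FPKM in Vil.Cre Maf.flox and 564 ± 38.8 FPKM in Maf.flox.

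**Figure D2:**
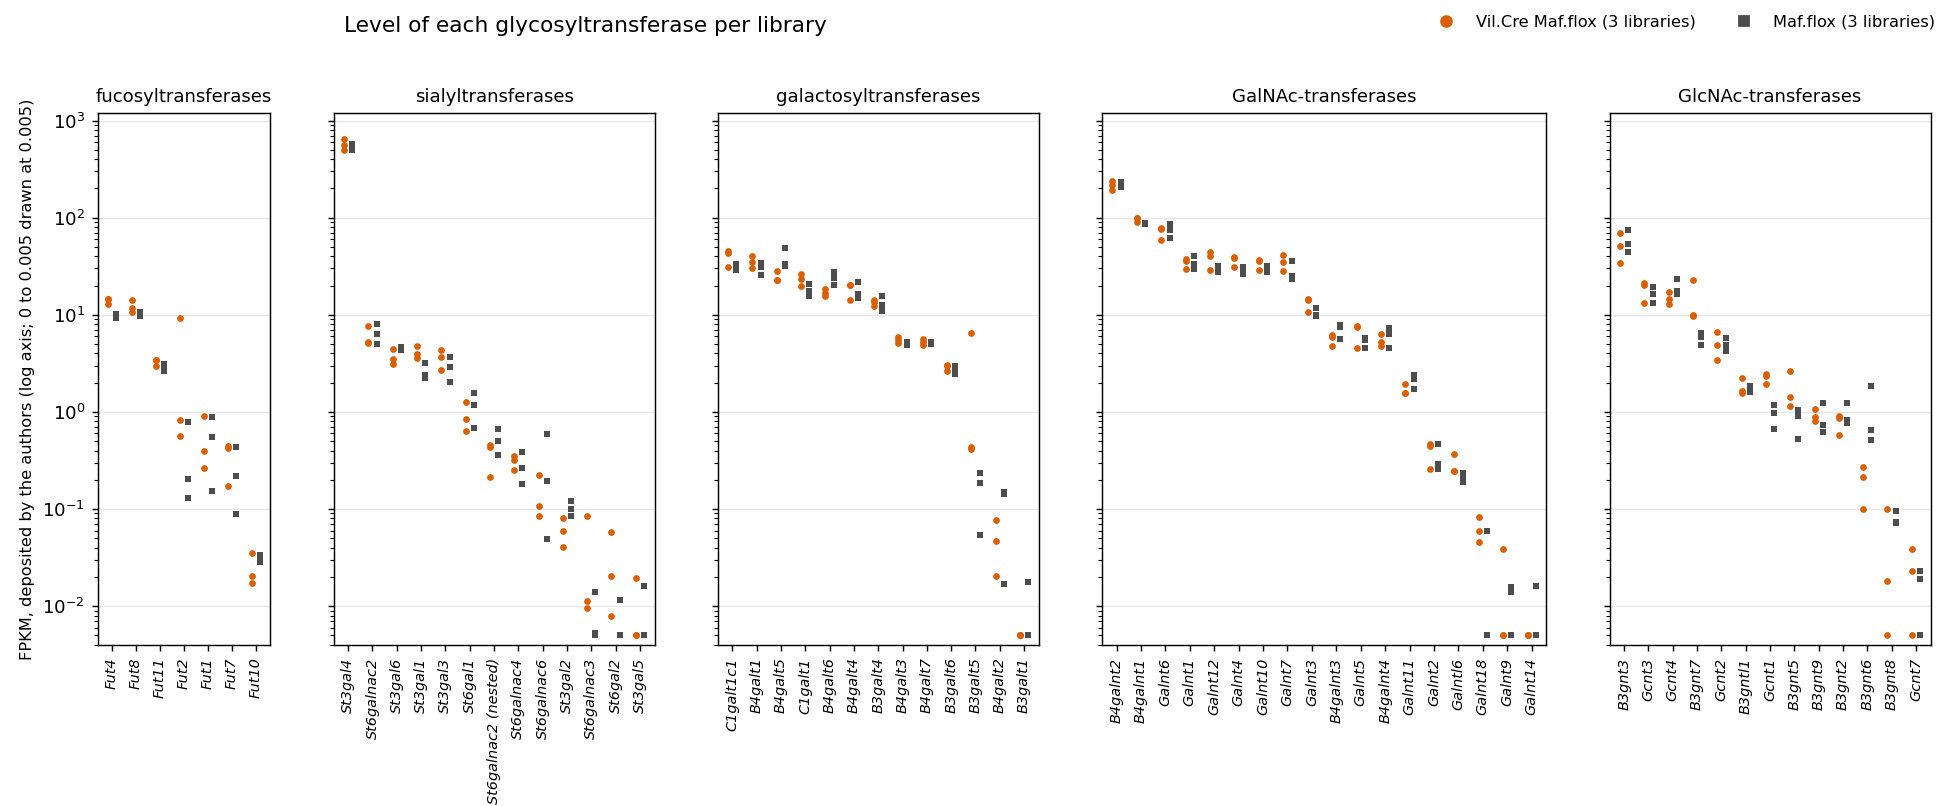
FPKM of each of the 64 glycosyltransferases (y axis, log scale) in the 3 Vil.Cre Maf.flox libraries (circles) and the 3 Maf.flox libraries (squares), ordered by mean level within each class, with values up to 0.005 drawn at 0.005. St3gal4 stands above every other gene drawn, and Fut2 and B3galt5 each have 1 Vil.Cre Maf.flox library far above the remaining libraries.

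Among the galactosyltransferases, the enzyme that makes the T antigen and its chaperone lay slightly higher in Vil.Cre Maf.flox. The pair that makes lactosylceramide lay lower, and none of these genes was called. The rule takes genes by symbol, so the chaperone is counted in the class. C1galt1, the T synthase, had 161, 144 and 119 CPM in Vil.Cre Maf.flox and 125, 109 and 95 CPM in Maf.flox. Its chaperone C1galt1c1, also called Cosmc, which is needed to fold C1galt1 and transfers no sugar itself, had 66.2, 62.8 and 44.9 CPM in Vil.Cre Maf.flox and 48.5, 42.1 and 43.7 CPM in Maf.flox. In both genes Vil.Cre Maf.flox replicates 1 and 2 stood above every Maf.flox library and replicate 3 lay within their range. The log2 fold changes were 0.37 for C1galt1 (SE 0.144, adjusted p = 0.252) and 0.37 for C1galt1c1 (SE 0.149, adjusted p = 0.262). C1galt1c1 lies on the X chromosome, and its value ran between 0.24 and 0.53 over the alternative fits, a sex term among them.

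B4galt5 and B4galt6 encode the enzymes that add galactose to glucosylceramide. B4galt5 (chr2:167298444-167349183) had 97.4, 122 and 96.8 CPM in Vil.Cre Maf.flox and 142, 214 and 138 CPM in Maf.flox. B4galt6 had 90.6, 108 and 96.1 CPM in Vil.Cre Maf.flox and 137, 163 and 117 CPM in Maf.flox. For each gene all 3 Vil.Cre Maf.flox libraries lay below all 3 Maf.flox libraries, and the Maf.flox libraries were the more spread out. The log2 fold changes were -0.64 for B4galt5 (SE 0.184, adjusted p = 0.148) and -0.50 for B4galt6 (SE 0.136, adjusted p = 0.129). Over the 14 alternative fits the values ran from -0.76 to -0.40 for B4galt5 and from -0.61 to -0.36 for B4galt6. Of these fits 2 called B4galt5, with an adjusted p between 0.0173 and 0.486, and 3 called B4galt6, with an adjusted p between 0.0305 and 0.477. As the libraries do not overlap, leaving 1 out could not turn the sign. Summed enterocyte markers were also lower in Vil.Cre Maf.flox, at 12360 to 17930 CPM, than in Maf.flox, at 18210 to 33520 CPM, with 13 of 14 tested markers below 0. Over all 13740 genes tested, 7085 lay below 0. The markers called lower were 2, Lct and Anpep. Fabp2 at -2.11, Fabp1 at -1.46, Apoa4 at -1.23 and Slc5a1 at -1.08 were not called, though their libraries did not overlap. Of the 14 markers, 9 were lower with an unadjusted edgeR p under 0.05, against 9.25% of all genes tested. Sis was at -0.21, Mgam at -0.15, Epcam at -0.10 and Krt20 at 0.02, each with libraries that overlapped. The part of enterocyte content in the B4galt5 and B4galt6 values was not tested.

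The galactosyltransferase with the largest log2 fold change was B3galt5 (chr16:96235801-96319859), which makes the type 1 chains that carry Lewis antigens in the gut. It had 784, 46 and 60 counts in Vil.Cre Maf.flox and 27, 28 and 7 counts in Maf.flox, or 39.8, 2.70 and 2.57 CPM against 1.14, 1.46 and 0.332 CPM. All Vil.Cre Maf.flox libraries stood above all Maf.flox libraries, and replicate 1 stood far above its own group. The log2 fold change of 3.94 (SE 1.47, adjusted p = 0.283) was 1.44 without Vil.Cre Maf.flox replicate 1 (adjusted p = 0.474), and the adjusted p over the alternative fits ran between 0.192 and 0.657. B4galt1, the main lactosamine galactosyltransferase, had 35.3 ± 5.05 FPKM in Vil.Cre Maf.flox and 30.2 ± 4.48 FPKM in Maf.flox, a log2 fold change of 0.21 (adjusted p = 0.516). The other 5 tested genes, among them B3galt6 and B4galt7 of the proteoglycan linker, had values between 0.01 and 0.11. The class had a median of 0.07, with 9 of 11 tested genes above 0 and 2 below.

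The GlcNAc-transferases held the member nearest to the threshold, Gcnt1 at chr19:17326141-17356667 (GRCm38, minus strand). Gcnt1, which branches the T antigen into core 2 chains, had 13.04, 10.75 and 13.65 CPM in Vil.Cre Maf.flox and 6.52, 5.47 and 3.75 CPM in Maf.flox. The lowest Vil.Cre Maf.flox library was well above the highest Maf.flox library. The log2 fold change was 1.25 (SE 0.221, adjusted p = 0.054), and it lay between 1.06 and 1.45 in the alternative fits, 5 of which called it, with an adjusted p between 3.5e-05 and 0.257. Gcnt3, the mucin-type branching enzyme, had 18.3 ± 4.43 FPKM in Vil.Cre Maf.flox and 16.3 ± 3.01 FPKM in Maf.flox (SD, n = 3 each), with libraries that overlapped. Gcnt4, a further core 2 enzyme, had a log2 fold change of -0.36 (SE 0.157, adjusted p = 0.301). Gcnt1 itself was at 2.25 ± 0.283 FPKM in Vil.Cre Maf.flox and 0.938 ± 0.256 FPKM in Maf.flox, below Gcnt3 and Gcnt4 in both genotypes.

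B3gnt7 (chr1:86302832-86307305), which extends lactosamine and keratan sulfate chains, had 93.0, 40.8 and 40.3 CPM in Vil.Cre Maf.flox and 26.6, 24.6 and 20.3 CPM in Maf.flox. The groups were apart, with replicate 1 again the highest of Vil.Cre Maf.flox. This was a log2 fold change of 1.28 (SE 0.347, adjusted p = 0.153), or 0.77 without that library. Of 14 alternative fits 1, DESeq2, called B3gnt7, and its adjusted p over these fits ran between 0.001 and 0.477. B3gnt5, the enzyme that starts lacto-series glycolipids, had 13.7, 7.34 and 5.90 CPM in Vil.Cre Maf.flox and 5.42, 2.76 and 4.79 CPM in Maf.flox. This was a log2 fold change of 1.05 (SE 0.368, adjusted p = 0.217), or 0.61 without Vil.Cre Maf.flox replicate 1, and the nearest libraries were close.

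B3gnt6, the core 3 synthase of mucin O-glycans, lay lower. It had 10, 4 and 15 counts in Vil.Cre Maf.flox and 103, 30 and 26 counts in Maf.flox, that is 0.507, 0.235 and 0.642 CPM against 4.33, 1.56 and 1.23 CPM. The groups did not overlap, although Maf.flox replicate 1 was more than 2 times any other library. The log2 fold change was -2.33 (SE 0.580, adjusted p = 0.110), or -1.54 without Maf.flox replicate 1. It lay between -2.65 and -1.54 over the alternative fits, 4 of which called it, with an adjusted p between 0.00548 and 0.405. Goblet cell markers, of which 6 of 12 lay above 0 and 6 below, summed to 15670 to 29810 CPM in Vil.Cre Maf.flox and 15890 to 34700 CPM in Maf.flox; their part in the B3gnt6 values was not tested. B3gnt3, which extends the T antigen and was the highest of the class per length, had 155, 213 and 104 CPM in Vil.Cre Maf.flox and 161, 228 and 135 CPM in Maf.flox, with wide overlap. Gcnt2, which makes I-branched chains, was at -0.00013, and B3gnt2, which extends poly-lactosamine, at -0.27 (SE 0.274). The class median was 0.06, with 6 of 11 tested genes above 0 and 5 below, and it was -0.0668 with a sex term and -0.106 without Maf.flox replicate 3.

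**Figure D3:**
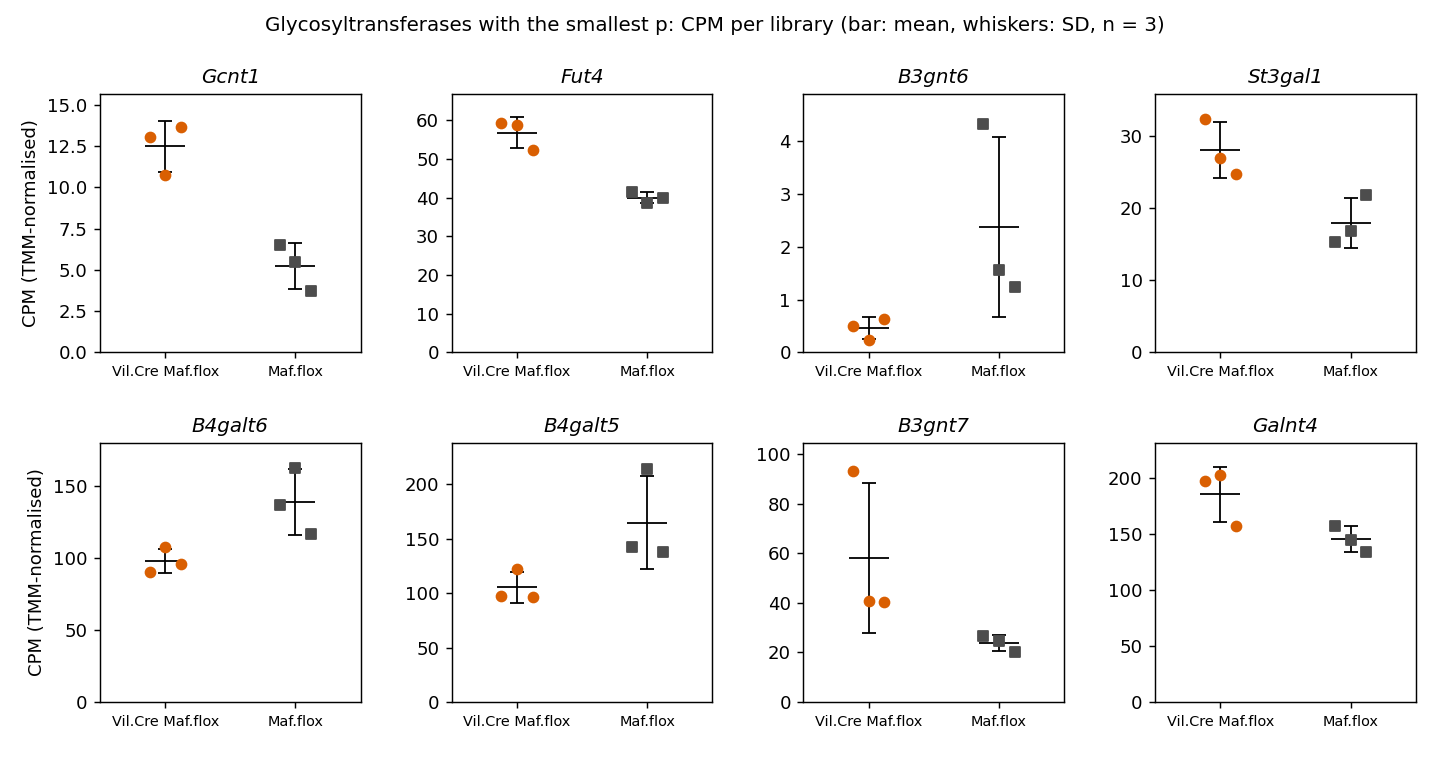
CPM per library (y axis) of the 8 glycosyltransferases with the smallest p, Vil.Cre Maf.flox left of Maf.flox, with the mean (bar) and SD (whiskers) of 3 libraries. Gcnt1, Fut4, St3gal1 and B3gnt7 lie higher in every Vil.Cre Maf.flox library, B3gnt6, B4galt5 and B4galt6 lie lower, and the Galnt4 libraries meet.

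Sialyltransferase RNA was almost wholly St3gal4. This gene, whose product caps lactosamine with sialic acid, had 1624, 1869 and 1430 CPM in Vil.Cre Maf.flox and 1654, 1653 and 1472 CPM in Maf.flox. Per length it reached 563 ± 73.2 FPKM in Vil.Cre Maf.flox and 542 ± 37.4 FPKM in Maf.flox (SD, n = 3 each), 96.2 to 97.1% of the summed FPKM of the 13 sialyltransferases in each library. The difference was smaller than the spread, with a log2 fold change of 0.04 (SE 0.145, adjusted p = 0.917) whose sign turned in 3 of 14 alternative fits. St6galnac2 (ENSMUSG00000057286) followed at 6.03 ± 1.38 FPKM in Vil.Cre Maf.flox and 6.42 ± 1.48 FPKM in Maf.flox.

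St3gal1, which adds sialic acid to the T antigen and so competes with Gcnt1 for the same acceptor, had 32.3, 27.0 and 24.7 CPM in Vil.Cre Maf.flox and 15.2, 16.8 and 21.8 CPM in Maf.flox. The groups did not overlap, and Vil.Cre Maf.flox replicate 3 and Maf.flox replicate 3 were the nearest. The log2 fold change was 0.64 (SE 0.164, adjusted p = 0.114), and 3 of 14 alternative fits called it. St3gal6, which also acts on lactosamine, had a log2 fold change of -0.28 (SE 0.142, adjusted p = 0.372). St6galnac6, a ganglioside sialyltransferase, had 21, 7 and 12 counts in Vil.Cre Maf.flox and 22, 56 and 5 counts in Maf.flox. Its log2 fold change of -1.005 (SE 0.805) rested on Maf.flox replicate 2 and was 0.18 without it. The nested St6galnac2 gene had -0.49 (SE 0.418), St6gal1, which caps N-glycans, -0.33 (SE 0.350) and St3gal3 0.30 (SE 0.257). The class median was -0.10, with 4 of 9 tested genes above 0 and 5 below; it was 0.064 with no filter and 0.0921 without Maf.flox replicate 2.

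The fucosyltransferases were led per length by Fut4, which makes Lewis x type structures, and by Fut8, which fucosylates the core of N-glycans. Fut4 (chr9:14748320-14752393) had 59.4, 58.9 and 52.2 CPM in Vil.Cre Maf.flox and 41.5, 38.5 and 40.0 CPM in Maf.flox. Both groups were tight and apart, and the log2 fold change was 0.51 (SE 0.0949, adjusted p = 0.0631), with 5 of 14 alternative fits calling it. Fut8 had 14.1, 11.6 and 10.6 FPKM in Vil.Cre Maf.flox and 10.7, 9.73 and 10.6 FPKM in Maf.flox, with a log2 fold change of 0.22 (SE 0.121, adjusted p = 0.409). Fut11 stood at 0.16 (SE 0.139, adjusted p = 0.619).

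Fut2 (chr7:45648591-45666394), the secretor enzyme that fucosylates the epithelial surface of the gut, had 982, 52 and 104 counts in Vil.Cre Maf.flox and 26, 83 and 15 counts in Maf.flox. This was 49.8, 3.05 and 4.45 CPM in Vil.Cre Maf.flox and 1.09, 4.32 and 0.711 CPM in Maf.flox. Apart from Vil.Cre Maf.flox replicate 1, the genotypes overlapped. The log2 fold change was 3.25 (SE 1.45, adjusted p = 0.364), and 0.91 without that library (adjusted p = 0.818), and the adjusted p over the alternative fits ran between 0.279 and 0.818. Fut1, which makes the same linkage, had 50, 19 and 17 counts in Vil.Cre Maf.flox and 10, 30 and 53 counts in Maf.flox, with no order between the groups. The class median was 0.35, with 5 of 6 tested genes above 0 and 1 below. The summed FPKM was 42.5, 31.0 and 28.0 in Vil.Cre Maf.flox and 24.5, 23.6 and 24.4 in Maf.flox, and Fut2 accounted for 9.19 of the 42.5 FPKM in Vil.Cre Maf.flox replicate 1.

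In Vil.Cre Maf.flox replicate 1, 3 members (Fut2, B3galt5 and B3gnt7) were more than 2 times as high as in any other library, a description that 0.24% of all genes tested met. The same count was 1 member (B3gnt6) for Maf.flox replicate 1, against 0.175% of all genes, and 1 member (St6galnac6) for Maf.flox replicate 2, against 0.64% of all genes. It was 0 for each of the other 3 libraries, against 0.0437 to 0.16% of all genes. A list of epithelial response genes to microbes, chosen after the values were seen, summed to 31160, 9992 and 12980 CPM in Vil.Cre Maf.flox and 7070, 5933 and 4566 CPM in Maf.flox. Of 10 tested, 8 lay above 0 and 2 (Nos2 and Il22ra1) below, with a median of 1.62, or 0.97 without Vil.Cre Maf.flox replicate 1, and Duox2 and Duoxa2 of the epithelial oxidase were called. Reg3b, an antimicrobial lectin, had 19980, 6335 and 8691 CPM in Vil.Cre Maf.flox and 4314, 3716 and 2731 CPM in Maf.flox; as a close paralog it can share reads with Reg3g. Saa1, an acute phase protein, had 98.5, 24.7 and 39.2 CPM in Vil.Cre Maf.flox and 14.3, 4.58 and 0.806 CPM in Maf.flox. Socs3, a feedback target of STAT3, had 68.3, 22.6 and 28.0 CPM in Vil.Cre Maf.flox and 20.3, 31.8 and 23.7 CPM in Maf.flox. Their part in the values of Fut2, B3galt5 and B3gnt7 was not tested. The total of that library, 20051246 counts, lay within the range of the other libraries.

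**Figure D4:**
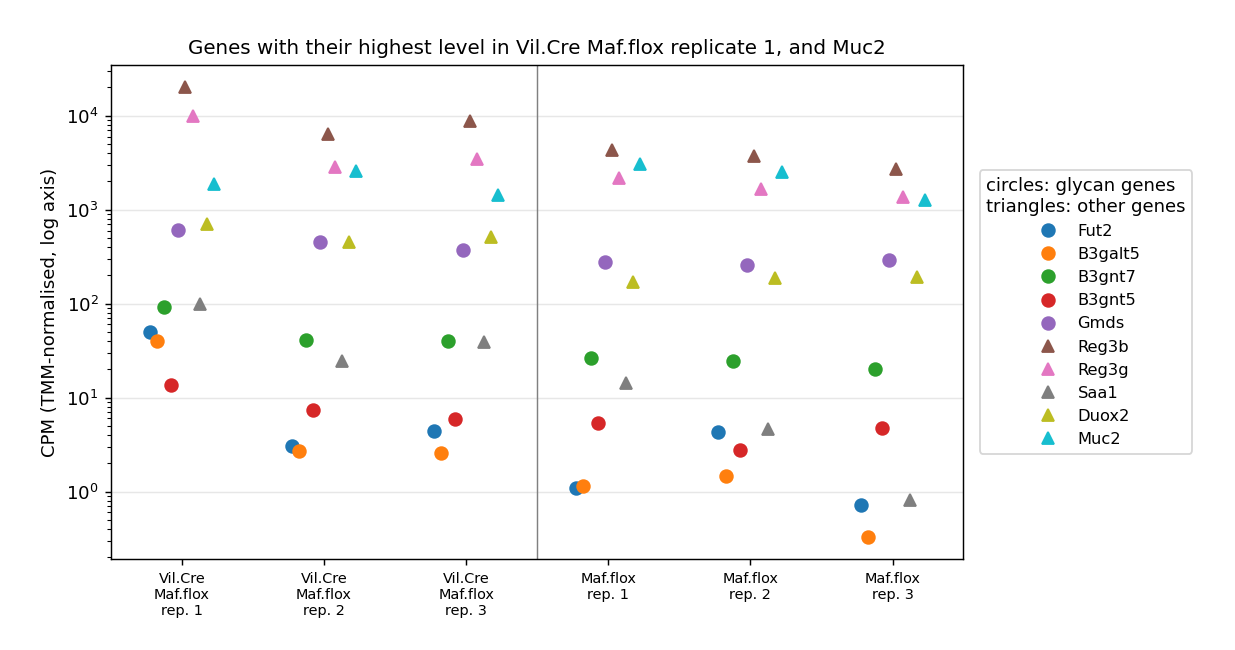
CPM (y axis, log scale) of Fut2, B3galt5, B3gnt7, B3gnt5 and Gmds (circles) and of Reg3b, Reg3g, Saa1, Duox2 and Muc2 (triangles) in each library, Vil.Cre Maf.flox left of Maf.flox. All except Muc2 are highest in Vil.Cre Maf.flox replicate 1, and Fut2 and B3galt5 stand furthest above their level in the other libraries.

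The sequences just before the start sites of Gcnt1, nearest to the threshold, of B4galt5, lower in every Vil.Cre Maf.flox library, and of B3galt5, highest in 1 library, are shown with matches to a pair of motifs in capitals. The windows are the 250 bases before the start site in RefSeq (GRCm38.p6), read 5′ to 3′ on the strand of the gene: chr19:17356668-17356917 on the minus strand for Gcnt1, chr2:167349179-167349428 on the minus strand for B4galt5 and chr16:96235551-96235800 on the plus strand for B3galt5. Where RefSeq gives several starts, the one nearest to the gene's start in the deposited table was used.
Gcnt1: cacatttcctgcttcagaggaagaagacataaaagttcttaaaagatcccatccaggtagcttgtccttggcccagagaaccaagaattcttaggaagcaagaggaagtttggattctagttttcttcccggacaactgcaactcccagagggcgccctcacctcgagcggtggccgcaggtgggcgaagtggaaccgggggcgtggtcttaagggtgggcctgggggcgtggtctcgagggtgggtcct
B4galt5: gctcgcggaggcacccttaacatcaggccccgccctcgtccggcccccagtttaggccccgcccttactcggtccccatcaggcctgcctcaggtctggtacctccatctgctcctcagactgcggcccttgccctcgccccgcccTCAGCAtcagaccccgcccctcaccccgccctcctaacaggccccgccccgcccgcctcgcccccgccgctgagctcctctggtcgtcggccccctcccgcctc
B3galt5: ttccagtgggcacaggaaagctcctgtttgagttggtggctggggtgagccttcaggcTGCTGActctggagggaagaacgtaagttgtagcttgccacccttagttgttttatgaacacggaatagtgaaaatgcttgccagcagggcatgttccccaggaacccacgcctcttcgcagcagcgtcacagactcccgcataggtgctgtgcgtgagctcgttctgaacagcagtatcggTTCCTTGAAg

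The capitals mark TGCTGA on either strand, the half-site of the Maf recognition element, and TTCNNNGAA, the pattern that STAT proteins bind. The B4galt5 window holds TGCTGA once, as TCAGCA, starting 104 bases before the start site. The B3galt5 window holds TGCTGA 192 bases and TTCNNNGAA 10 bases before it, and the motifs do not overlap. The Gcnt1 window holds neither. TGCTGA occurred in 16.1% and TTCNNNGAA in 7.02% of the 32851 promoter windows of that length in the RefSeq table. Among 65 windows of the 47 members found there, 14 held TGCTGA and 5 held TTCNNNGAA.

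In each list of genes that supply the sugar donors, more genes lay above 0 than below, and none was called. Over all genes tested, 48.4% lay above 0. Gmds, the first enzyme of GDP-fucose synthesis from GDP-mannose, had 614, 448 and 368 CPM in Vil.Cre Maf.flox and 275, 259 and 292 CPM in Maf.flox. The groups did not overlap, replicate 1 was the highest, and the log2 fold change was 0.79 (SE 0.180, adjusted p = 0.0891), or 0.57 without replicate 1. Fuk, the fucose salvage kinase, had a log2 fold change of 0.39 (adjusted p = 0.153). Of 8 tested genes of GDP-fucose supply and use, 5 lay above 0 and 3 below, with a median of 0.14.

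Slc35a2, the Golgi transporter for UDP-galactose, had 104, 94.0 and 80.7 CPM in Vil.Cre Maf.flox and 70, 54.8 and 63.4 CPM in Maf.flox. The groups did not overlap, and the log2 fold change was 0.57 (SE 0.131, adjusted p = 0.0923). The UDP-sugar list had 12 of 15 tested genes above 0 and 3 below, with a median of 0.16. Nans, the sialic acid synthase, and Cmas, which activates sialic acid, had log2 fold changes of 0.46 (adjusted p = 0.146) and 0.30 (adjusted p = 0.204), and the sialic acid list had 4 of 5 tested genes above 0 with a median of 0.30.

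The sulfotransferase and sialic acid O-acetylation list had a median of -0.06 over 8 tested genes, with Siae, a sialic acid esterase, at -0.46 (adjusted p = 0.173) and the sulfate transporter Slc26a2 at -0.74 (adjusted p = 0.217). Golgi glycosyltransferases of other families had a median of -0.09 over 13 tested genes, with Mgat3, the bisecting enzyme of N-glycans, at -0.40 (adjusted p = 0.233) and A4gnt, which adds terminal GlcNAc to gland mucins, at 0.85 (adjusted p = 0.272). None of either list was called.

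Among the proteins that carry these glycans, the transmembrane mucin Muc4 was the only gene called of 8 tested mucins and mucus proteins, with 2 above 0 and 6 below. It rose to 78.6, 65.1 and 73.8 CPM in Vil.Cre Maf.flox, against 39.5, 42.4 and 38.5 CPM in Maf.flox, with both groups tight and apart. The log2 fold change was 0.85 (SE 0.103, adjusted p = 0.0172), and 11 of 14 alternative fits called it, with an adjusted p between 1.44e-08 and 0.0889. Muc13, the transmembrane mucin next by p, had a log2 fold change of 0.34 (SE 0.190, adjusted p = 0.414). Muc2, the secreted goblet cell mucin, had 1868, 2595 and 1431 CPM in Vil.Cre Maf.flox and 3031, 2523 and 1279 CPM in Maf.flox, a spread within each genotype wider than the difference between them. The median of the list was -0.19.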

How the data were processed

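Poly-A RNA of 6 libraries was sequenced. The submitters' processing notes name featureCounts 1.5.0-p3, HISAT2 2.0.5, DESeq2 and the genome GRCm38 (mm10); strand use is not given in the sources used here. The deposited counts are whole and not normalised. The FPKM deposited by the authors equal counts over gene length and 1 library size per library, and were used for levels only, without a test.

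Counts were tested with edgeR 4.0.16 (R 4.3.3): filterByExpr with a least count of 10, TMM, quasi-likelihood F test with robust estimation on genotype alone, Benjamini-Hochberg adjustment over 13740 genes. The code was checked on simulated data. Alternatives were other scalings, filters and thresholds, DESeq2 1.42.0, limma-voom 3.58.1, blocking by replicate number, a sex term and leaving out each library.

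Members and lists were chosen with earlier results of these data known. In each class the text names the 3 highest by FPKM, the 3 with the smallest p and up to 4 more whose libraries did not overlap, and in each pathway list the 2 with the smallest p; others were chosen after their values were seen. A gene that the rule names in a pathway list is not reported here. All 64 members matched GENCODE M21 by ID and symbol. In GENCODE M21, exons of these tested members overlap a gene on the other strand, whose reads cannot be told apart without strand: Fut8, St3gal4, St3gal6, St6gal1, St6galnac2 (ENSMUSG00000057286), B4galt3, B4galt7, B4galnt1, B4galnt2, B4galnt3, Galnt2, Galnt5, Galnt6, Galnt7, Galnt11, Galntl6, Gcnt2, Gcnt4, B3gnt2, B3gnt7, B3gnt9 and B3gntl1. Galnt2, Galnt4, B3gnt2 and both St6galnac2 genes overlap another gene on the same strand. Replicate pairs differed far beyond counting noise.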

Additional observations from a re-analysis of the deposited data

How the results depend on the processing

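Against 0 glycosyltransferases called, DESeq2 called 7 (Gcnt1, Fut4, St3gal1, B3gnt7, B3gnt6, B4galt5 and B4galt6), no filter gave 4, upper quartile factors gave 2 and an FDR of 0.1 gave 2. RLE scaling, a least count of 50, limma-voom, the sex term and an FDR of 0.01 gave 0. Leaving out 1 library gave 0 to 5, and the 5 (Gcnt1, Fut4, St3gal1, B3gnt6 and B4galt6) came without Maf.flox replicate 3. Over all genes, 75 were called with the settings reported above, against 761 with DESeq2, 365 with no filter, 34 with limma-voom, 38 with the sex term, 372 at FDR 0.1 and 2 at FDR 0.01, and 8 to 701 with 1 library left out. A replicate block gave 440 genes and 5 members (Gcnt1, Fut4, B3gnt6, B4galt5 and B4galt6). The deviations from the group mean of libraries with a shared number had correlations of 0.0917, -0.0256 and 0.269, and the replicate numbers were not treated as a pairing. The sialyltransferase median of -0.10 was 0.064 with no filter and ran from -0.292 to 0.0921 with 1 library left out, and the fucosyltransferase median of 0.35 ran from 0.23 to 0.54. The GlcNAc-transferase median of 0.06 turned sign, at -0.0668 with the sex term, -0.012 without Vil.Cre Maf.flox replicate 1 and -0.106 without Maf.flox replicate 3, moves smaller than the spread between libraries. The medians of the other 2 classes and of all members kept their sign. Among the 29 members named by rule, the sign turned for 7, none of them called. Among the other tested members it turned for Fut1, St6galnac4, B4galt4, B3galt4, B4galt7, Galnt1, Gcnt2, B3gntl1 and B3gnt9. With the sex term, St3gal4 was -0.0244 and Gcnt3 -0.0308. With 1 library left out, St3gal4 ran from -0.043 to 0.133, St6galnac2 (ENSMUSG00000057286) from -0.292 to 0.0921, St6galnac6 from -1.50 to 0.181, B4galnt2 from -0.113 to 0.0159, Galnt6 from -0.180 to 0.0524 and B3gnt3 from -0.415 to 0.0922. The cause was not tested. B3gnt6, Fut2, B3galt5 and St6galnac6 have few counts in several libraries, which limits what can be seen there.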
